A study of Mus musculus with 4 samples.

Results

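Aminoacyl-tRNA synthetases, the enzymes that load each amino acid onto its transfer RNA, were followed in mouse embryonic stem cells with and without the chromatin remodeler Chd1. The group was defined by gene symbol. It held 38 genes: 20 synthetases of the cytosol, 16 of the mitochondria (symbols ending in 2) and the scaffold proteins Aimp1 and Aimp2. Each of the 38 symbols stood once in each deposited table, and all 38 passed the filter on low values, among 10261 tested genes.

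All cells carried Rosa26CreER, a Cre recombinase expressed from the Rosa26 locus and activated by tamoxifen, together with one floxed and one null Chd1 allele (Chd1fl/-). Control cells received ethanol and so kept the floxed allele as their single functional copy. Chd1-/- cells, called Chd1-null here, received 1 µM tamoxifen for 48 to 72 h. Both were then passaged without tamoxifen 3 to 5 times in serum with LIF, so an effect of the earlier tamoxifen exposure and one of the deletion cannot be told apart. The libraries form set 1 and set 2 by their labels, a control beside a Chd1-null library in each, and the protocol names independently derived lines without tying them to sets, so n = 2 per group. For each library RNA was taken from a matched number of viable cells, and synthetic transcripts were spiked in. Values were taken as FPKM, fragment numbers per transcript length and sequencing depth, a unit inferred from the values. On that reading levels can be compared between genes. How the spiked-in transcripts entered the scale is not given. In bulk RNA, less RNA in every cell and fewer cells that express a gene cannot be told apart.

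As background, a synthetase joins an amino acid to ATP and then to the matching tRNA, and the ribosome reads the charged tRNA. Class I and class II synthetases have unrelated catalytic folds. Several cytosolic synthetases sit in a multisynthetase complex held together by Aimp1, Aimp2 and Eef1e1, while the others act free of it. Mitochondria import a separate, nuclear-encoded set that serves the proteins encoded by mitochondrial DNA. Kars and Gars are exceptions, since each gene supplies both compartments. When uncharged tRNA accumulates, the kinase Gcn2 (Eif2ak4) raises translation of the transcription factor ATF4, which is known to activate genes of amino acid supply, many cytosolic synthetases among them.

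Chd1 measured 27.6 FPKM in control 1 against 5.71 in Chd1-null 1, and 17.9 in control 2 against 8.52 in Chd1-null 2. It was lower in the Chd1-null library of each set (log2 fold change -1.66, limma SE 0.25), but 20.7% of the control level remained in set 1 and 47.7% in set 2. A value for the whole gene does not show whether the remaining reads lie inside the deleted part, so Chd1-null is the name the labels give. Most tested genes were lower too: the median log2 ratio of Chd1-null over control was -0.46 in set 1 and -0.33 in set 2. FPKM summed over loci to between 466994 and 719549 per library. Of 9 stem cell markers all were named in both tables, with Pou5f1 between 403 and 599 FPKM. Of the 9, 8 fell (9.8% of all tested genes did). Relative to each set's median 0 of 9 passed in limma, and 4 had an unadjusted p under 0.05 (645 of all 10261 tested genes did). Of 8 fibroblast or feeder markers 5 were named in both tables, and their sum lay between 2.65 and 8.29 FPKM per library. Of 6 primitive endoderm markers 2 were named in both tables, and their sum lay between 0.451 and 1.31 FPKM. Of 5 trophectoderm markers 4 were named in both tables, and their sum was 289 and 150 FPKM in set 1 but 47.8 and 31.8 in set 2, nearly all of it Krt8 and Krt18, of which Krt18 fell (limma adjusted p = 8.5e-05). Of 4 neural markers all were named (sums of 26.9 to 48.0 FPKM, mostly Tubb3 and Nes, of which Tubb3 fell with a limma adjusted p of 0.00042), and of 3 blood markers Cd34 alone (1.16 to 2.00 FPKM). Whether these cells play a part in the synthetase values was not tested.

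The first comparison asked how much synthetase RNA Chd1-null cells held on the deposited scale. Of the 38 genes 8 fell and 0 rose (limma with set as a block, adjusted p under 0.05). They were the cytosolic Wars, Iars, Cars, Aars, Nars, Yars and Gars and the mitochondrial Lars2. That was 21.1% of the group, against 9.8% of all tested genes that fell and 0.0682% that rose. By compartment 7 of 20 cytosolic enzymes fell (35.0%) and 1 of 16 mitochondrial ones (6.25%). At an unadjusted p under 0.05 the counts were 15 of 20 and 3 of 16, against 2995 of all 10261 tested genes. Lower values in both sets were found for 31 of the 38 genes (81.6%, against 72.4% of all genes). In 25 of the 38 (65.8%, against 52.6% of all genes) both Chd1-null values lay under both control values. Summed over the 38 genes, FPKM went from 2491 to 2004 in set 1 and from 2378 to 1714 in set 2, or 80.4% and 72.1% of control. The sum over all tested genes stood at 81.0% and 73.2%. The limma test has 1 residual degree of freedom and takes its spread from genes of similar level (prior degrees of freedom inf), so a gene's own difference between the sets does not enter its p-value. With set left out as a block, limma called 0 of the 38 genes (lowest adjusted p = 0.461, and 6 genes at an unadjusted p under 0.05), and with a mean of at least 5 FPKM also 0 (lowest adjusted p = 0.063). It also called 0 with libraries scaled to the same sum (lowest adjusted p = 0.426), where 22 of the 38 log2 fold changes turned positive, and with one common prior variance (lowest adjusted p = 0.294).

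**Figure D1:**
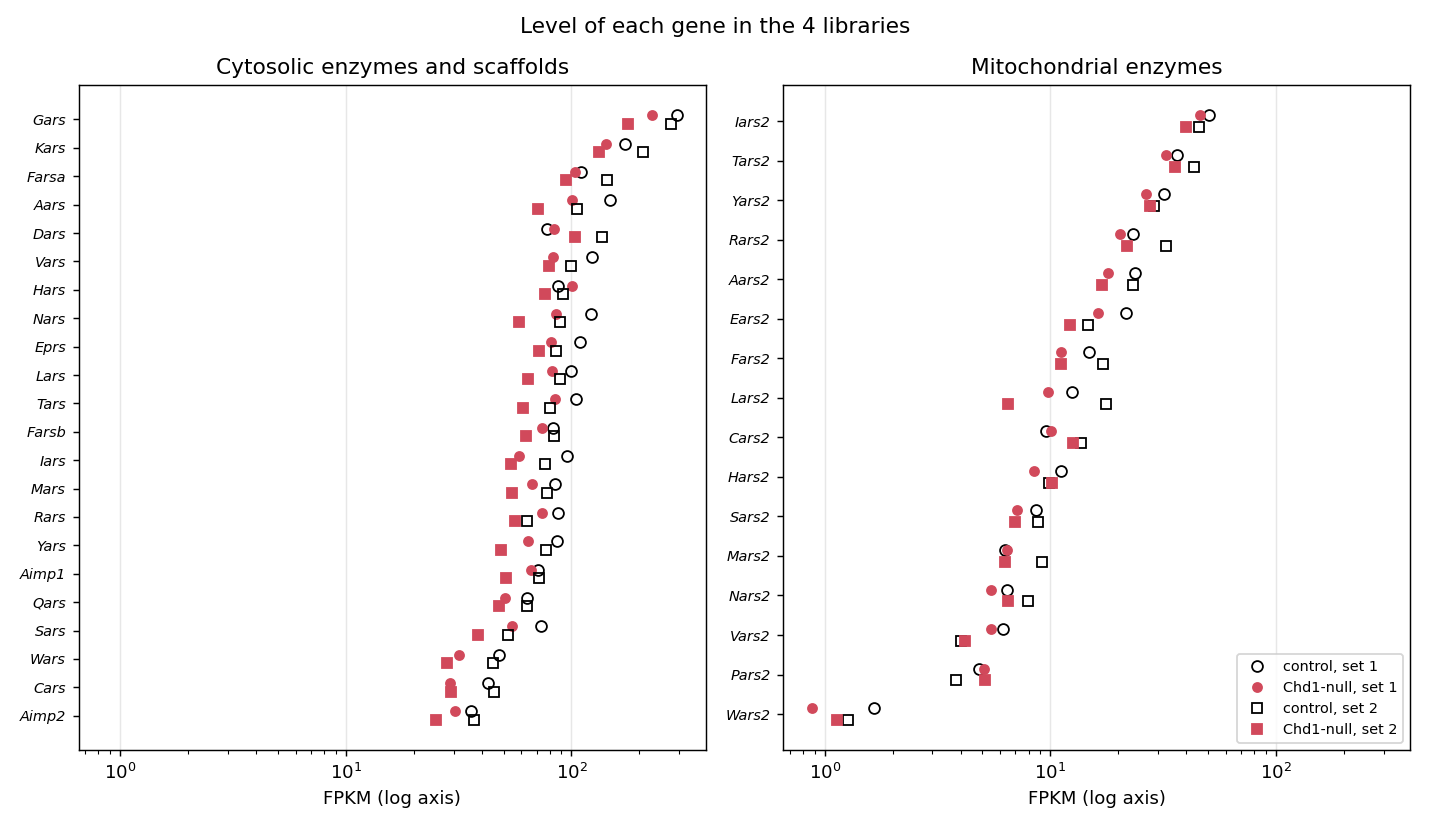
FPKM (log axis) of each gene in the 4 libraries, cytosolic enzymes and scaffolds on the left and mitochondrial enzymes on the right, ordered by mean level. Open symbols are controls, filled ones Chd1-null, circles set 1 and squares set 2; the cytosolic enzymes lie between 28.1 and 295 FPKM and the mitochondrial ones between 0.874 and 50.6.

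The compartments differed widely in level, as the plot of FPKM by library shows. In control cells the cytosolic enzymes had a median of 91.4 FPKM in set 1 and 84.3 in set 2, and the mitochondrial ones 11.8 and 14.2. Gars, the glycine enzyme, was the highest of all at 295 FPKM in control 1 and 276 in control 2. Next came Kars, the lysine enzyme, at 172 and 207. Cars (42.5 and 45.4) and Wars (47.9 and 45.0), the cysteine and tryptophan enzymes, were the lowest cytosolic ones, and their order was reversed between the sets. The highest mitochondrial enzyme, Iars2 for isoleucine, reached 50.6 and 45.8 FPKM in the controls, and within each control library it was the only mitochondrial enzyme above the lowest cytosolic one. Wars2, the mitochondrial tryptophan enzyme, was the lowest at 1.65 and 1.27.

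Among cytosolic class I enzymes, 4 of 10 fell (40%, against 9.8% of all tested genes). All 10 were lower in both sets, as were 72.4% of all tested genes. In deciles 9 and 10 of level, where all cytosolic enzymes lay, 17.0% and 19.4% of genes fell. Wars, for tryptophan, measured 47.9 FPKM in control 1 against 31.6 in Chd1-null 1, and 45.0 in control 2 against 28.1 in Chd1-null 2. Both Chd1-null libraries were lower than both controls, and Wars fell by 0.64 on the log2 scale (limma SE 0.19, adjusted p = 0.017). Iars, for isoleucine, went from 95.3 to 58.4 FPKM within set 1 and 76.5 to 54.1 within set 2. It fell by 0.60 (SE 0.17, adjusted p = 0.015) and its groups did not overlap. Cars, for cysteine, went from 42.5 to 28.9 FPKM and from 45.4 to 29.3, again with no overlap. It fell by 0.59 (SE 0.19, adjusted p = 0.029). Yars, for tyrosine, went from 86.3 to 63.9 FPKM within set 1 and 77.4 to 48.6 within set 2. The Chd1-null values of Yars lay under both controls, and it fell by 0.55 (SE 0.18, adjusted p = 0.027). The remaining class I enzymes had log2 fold changes of -0.45 (Vars, valine), -0.43 (Mars, methionine), -0.37 (Lars, leucine), -0.36 (Qars, glutamine), -0.34 (Eprs, a fused enzyme for glutamate and proline) and -0.21 (Rars, arginine), and did not pass.

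Among cytosolic class II enzymes 3 of 10 fell (30%, against 9.8% of all tested genes) and 8 were lower in both sets (80%, against 72.4%). In the highest decile of level, which held 9 of the 10, 19.4% of genes fell. Aars, for alanine, measured 149 FPKM in control 1 against 100.3 in Chd1-null 1, and 106 in control 2 against 70.8 in Chd1-null 2. Its controls differed from each other, but the ratio was nearly the same in both sets, at 67.5% and 66.6% of control. Aars fell by 0.58 (SE 0.17, adjusted p = 0.017). Nars, for asparagine, went from 122 to 85.7 FPKM within set 1 and 89.0 to 58.7 within set 2, with no overlap between groups. It fell by 0.56 (SE 0.17, adjusted p = 0.023). Gars went from 295 to 227 FPKM and from 276 to 178, so the most abundant synthetase kept 76.9% and 64.5% of control. Gars fell by 0.51 (SE 0.17, adjusted p = 0.037). Kars just missed the threshold (log2 fold change -0.45, adjusted p = 0.061), with 82.8% of control in set 1 and 64.4% in set 2. Sars, for serine, had log2 ratios of -0.43 and -0.44, close to each other, yet a limma adjusted p of 0.097. The phenylalanine enzyme is built of the subunits Farsa and Farsb, whose log2 fold changes were -0.34 and -0.28, mostly from set 2. Tars, for threonine, had -0.35.

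Hars and Dars, for histidine and aspartate, were the cytosolic enzymes whose sets disagreed in sign. Hars measured 87.5 FPKM in control 1 against 100.8 in Chd1-null 1, and 92.0 in control 2 against 76.3 in Chd1-null 2. It was the highest library in Chd1-null 1 and the lowest in Chd1-null 2, and its log2 fold change was -0.032 (adjusted p = 0.90). Dars went from 78.3 to 83.6 FPKM within set 1 and 136 to 104 within set 2. Both set 2 libraries of Dars were higher than both set 1 libraries, so the groups overlapped, and its log2 fold change was -0.14 (adjusted p = 0.55).

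**Figure D2:**
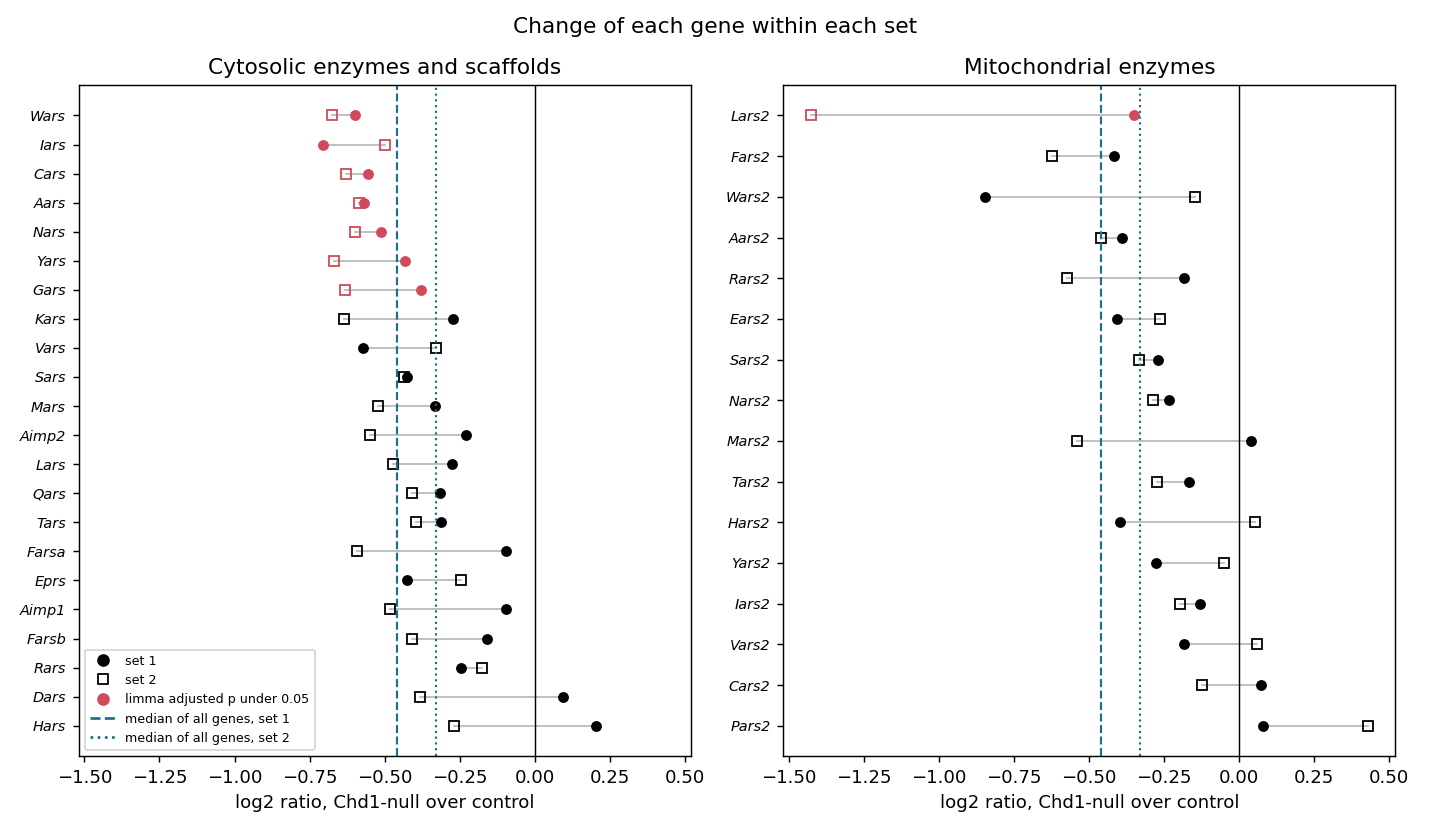
Log2 ratio of Chd1-null over control for each gene, in set 1 (filled circles) and set 2 (open squares), with red for genes past the limma threshold; blue lines mark the median of all tested genes in set 1 (dashed, -0.46) and set 2 (dotted, -0.33). The 7 red cytosolic enzymes have both ratios under -0.37, while Lars2 has -0.35 in set 1 and -1.43 in set 2.

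The multisynthetase complex was described apart from the free enzymes. Of its 8 synthetases 1 fell (Iars, 12.5%), and of the 12 cytosolic genes outside it 6 fell (50%). Among all tested genes 9.8% fell. In the highest decile of level, which held 7 of the 8 and 9 of the 12, 19.4% of genes did. Median log2 ratios were -0.29 in set 1 and -0.44 in set 2 inside the complex, and -0.43 and -0.59 outside it. The difference between these lists was not tested. The scaffold Aimp1 stood at 70.9 and 66.3 FPKM in set 1 and at 72.0 and 51.5 in set 2 (log2 fold change -0.29, adjusted p = 0.25). Aimp2 stood at 35.8 and 30.5 FPKM, and at 36.9 and 25.2 (log2 fold change -0.39, adjusted p = 0.17). Neither scaffold passed. For each, both Chd1-null values lay under both controls, as they did for 52.6% of all tested genes. Eef1e1, the remaining scaffold and not one of the 38 genes, fell by 0.79 (SE 0.19, adjusted p = 0.0023), from 37.3 to 28.6 FPKM within set 1 and 62.6 to 27.4 within set 2.

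Among the mitochondrial enzymes 1 of 16 fell (6.25%, against 9.8% of all tested genes) and 11 were lower in both sets (68.75%, against 72.4%). Of the 16, 1 was higher in both sets (288 of all 10261 tested genes were) and 4 went opposite ways (2542 of 10261 did). Lars2, for leucine, measured 12.5 FPKM in control 1 against 9.76 in Chd1-null 1, and 17.6 in control 2 against 6.48 in Chd1-null 2. Its groups did not overlap, but it kept 78.2% of control in set 1 and 36.8% in set 2. Lars2 fell by 0.89 (SE 0.26, adjusted p = 0.015), while its own log2 ratios of -0.35 and -1.43 had an SD of 0.76. The call therefore rests mostly on set 2. Fars2, for phenylalanine, had the next lowest change (-0.52, adjusted p = 0.14), from 14.9 to 11.1 FPKM within set 1 and 17.2 to 11.1 within set 2. Wars2 had a log2 fold change of -0.50 with an SE of 0.68, the widest of the group, at levels of 0.874 to 1.65 FPKM. Aars2, for alanine, had -0.43 and close ratios in both sets (76.1% and 72.6% of control). Rars2, for arginine, had -0.38, mostly from set 2.

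Pars2, for proline, was the only one of the 38 genes with higher values in both sets. It measured 4.82 FPKM in control 1 against 5.09 in Chd1-null 1, and 3.80 in control 2 against 5.15 in Chd1-null 2. Both Chd1-null values of Pars2 lay above both controls, but its log2 fold change of 0.25 had an SE of 0.36 (adjusted p = 0.61). Smallest in change were Cars2 (-0.026), Vars2 (-0.062), Iars2 (-0.16), Yars2 (-0.16) and Hars2 (-0.17). Iars2, with a level near those of the lowest cytosolic enzymes, had an SE of 0.18. Yars2, lower at 32.0 and 28.7 FPKM in the controls, had an SE of 0.20. The remaining mitochondrial enzymes, Ears2, Sars2, Nars2, Mars2 and Tars2, had log2 fold changes of -0.34, -0.30, -0.26, -0.25 and -0.22.

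The second comparison set cytosolic against mitochondrial enzymes by their ratios within each set. Median log2 ratios of the cytosolic enzymes were -0.36 in set 1 and -0.49 in set 2 (0.782-fold and 0.714-fold). For the mitochondrial enzymes they were -0.25 and -0.27 (0.840-fold and 0.830-fold). The cytosolic median was thus lower by 0.10 in set 1 and by 0.22 in set 2, with a mean difference of -0.16 ± 0.080 (SD, n = 2 sets). With 2 pairs an exact sign-flip test cannot go below p = 0.5, and genes of a list are not replicates, so no p is given for this difference. The cytosolic median also lay on different sides of the median of all genes: above it in set 1 and below it in set 2. The mitochondrial median lay above it in both. The rates of calls by compartment are not a measure of this difference, since limma SEs ran from 0.17 to 0.19 for cytosolic and from 0.18 to 0.68 for mitochondrial genes.

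**Figure D3:**
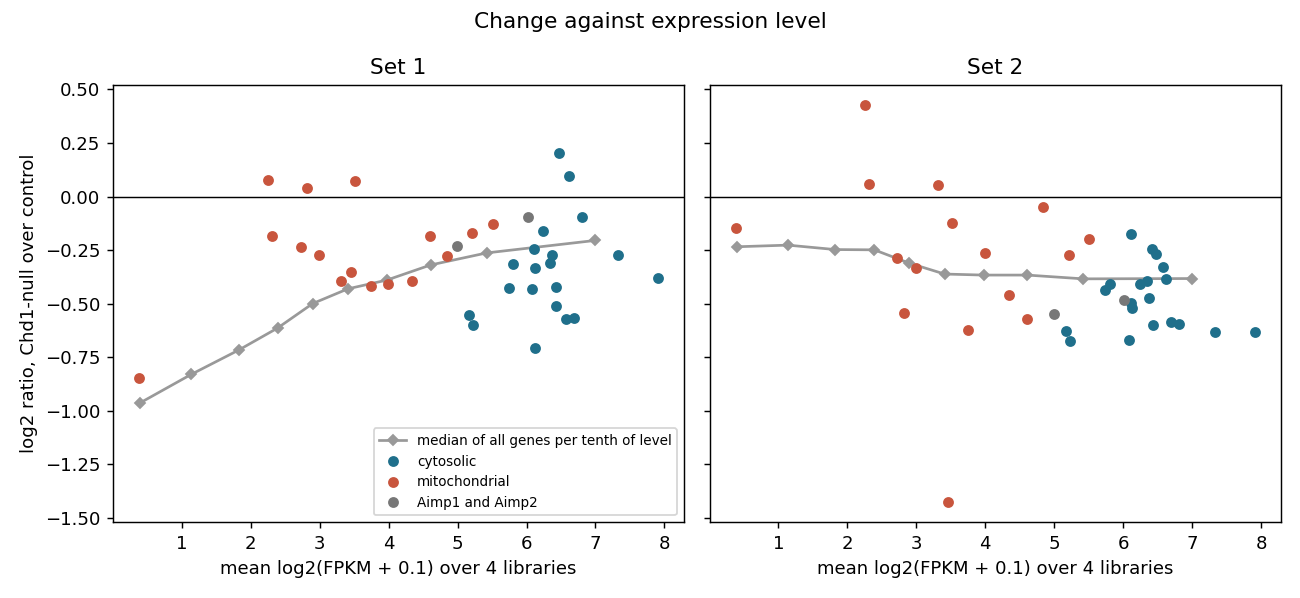
Log2 ratio of Chd1-null over control in set 1 (left) and set 2 (right) against mean log2(FPKM + 0.1) over the 4 libraries; grey diamonds join the median of all genes in each decile of level. In set 1 the grey line climbs from -0.96 to -0.20 and in set 2 it goes from -0.23 to -0.38, and most cytosolic points lie under it.

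Level moved with compartment. Of the cytosolic enzymes 16 lay in the highest decile of level and 4 in decile 9, whereas the mitochondrial ones were spread over lower deciles and none was in the highest. In the highest decile 19.4% of genes fell, and 5 of the 16 cytosolic enzymes there (31.2%) did. The median log2 ratio of that decile was -0.20 in set 1 and -0.38 in set 2. Against the median of their own level decile, 16 of 20 cytosolic enzymes lay lower in set 1 and 16 in set 2, and 13 lay lower in both (26.6% of all genes did). Of the 16 mitochondrial enzymes 3 lay lower in set 1 and 6 in set 2, 2 lay lower in both, and 9 lay at or above it in both (26.6% of all genes did). After each set's trend on level was removed, the cytosolic minus mitochondrial difference was -0.26 in set 1 and -0.20 in set 2. Under that correction 2 cytosolic enzymes, Aars and Gars, passed in limma and 0 mitochondrial ones (lowest adjusted p of the latter 0.0759, with 4 at an unadjusted p under 0.05). The share of all tested genes that passed under that correction is not given here, so these counts cannot be set against it.

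**Figure D4:**
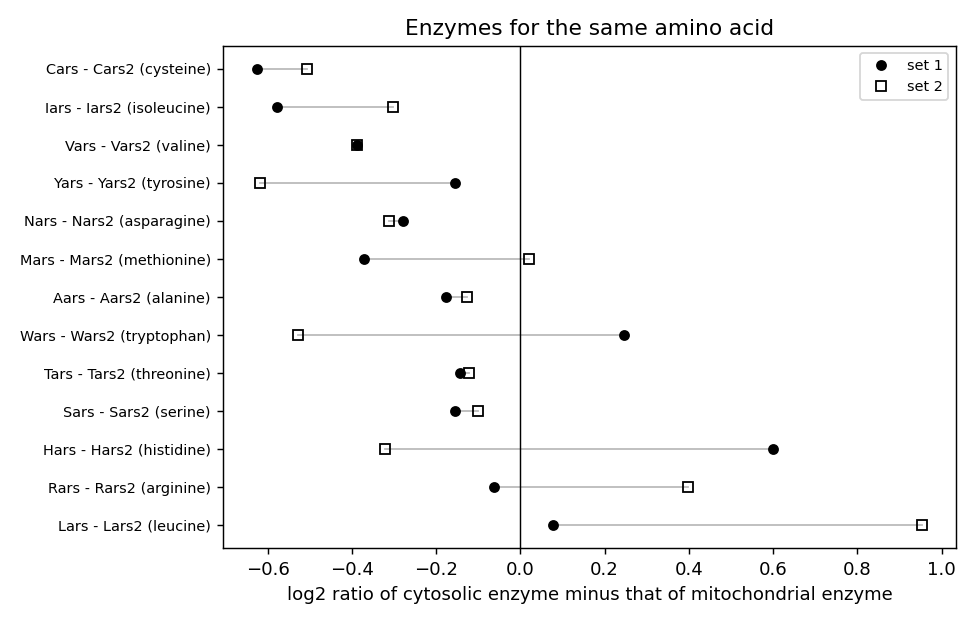
Log2 ratio of the cytosolic enzyme minus that of the mitochondrial enzyme for the same amino acid, in set 1 (filled circles) and set 2 (open squares); values under 0 mean that the cytosolic enzyme was the lower one. For 8 of 13 amino acids both sets lie under 0, and leucine is the one with both above.

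For 13 amino acids one gene serves each compartment, and these pairs were compared within each set. In control cells the cytosolic gene was the higher one in all 13, by 1.88-fold to 29.0-fold in set 1 and by 1.67-fold to 35.6-fold in set 2. The cytosolic gene had the lower log2 ratio in 10 pairs in set 1, in 10 in set 2 and in 8 in both, as the plot of amino acid pairs shows. The lowest mean difference was for cysteine, where the log2 ratio of Cars minus that of Cars2 was -0.63 in set 1 and -0.51 in set 2. For valine (Vars and Vars2) the difference was -0.39 in each set. For isoleucine (Iars and Iars2) it was -0.58 and -0.30. Leucine was the opposite case, at 0.077 and 0.95, with Lars2 at its lowest in Chd1-null 2. Histidine, methionine, arginine and tryptophan had differences of opposite sign in the sets.

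The third comparison took out the shift shared by most genes by subtracting each set's median log2 ratio. None of the 38 genes passed in limma in either direction, against 0.214% of all genes that fell and 0.146% that rose. At an unadjusted p under 0.05 there was 1 gene, against 645 of all 10261 tested genes. It was Pars2, which stood 0.65 above the median (SE 0.33, adjusted p = 0.784). Lars2 stood lowest, at -0.49 (SE 0.26, adjusted p = 0.799), from 0.11 in set 1 and -1.10 in set 2. Both sets lay below the median for 5 of the 38 genes, the cytosolic Wars, Iars, Cars, Aars and Nars, against 24.6% of all genes. Both lay above it for 12 genes, 3 cytosolic and 9 mitochondrial, against 24.6% of all genes. The 3 cytosolic ones were Hars, Rars and Eprs, at 0.36, 0.18 and 0.059.

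Promoter sequence was described where a window was given. RefSeq windows of 300 bases (250 before to 50 after the annotated start, GRCm38.p6) were matched for 29 of the 38 genes. Cars, Hars, Lars, Nars, Rars, Vars, Wars, Hars2 and Pars2 were not matched. The core of the C/EBP-ATF response element, the kind of site that ATF4 is known to bind, was searched as TGATGNAA on both strands. It was present in the windows of 5 genes, all cytosolic (5 of 13 matched): Aars, Gars, Iars, Tars and Yars. It was present in 0 of 14 matched mitochondrial genes and in neither scaffold, and in 3.97% of all 32851 windows. The stretches with the match are shown because 4 of these 5 genes fell (9.8% of all tested genes did). Each is printed in the direction of its gene with the match in capitals, and in every stretch but that of Yars the capitals are the reverse complement of the searched letters.
Aars, chr8:111033709-111033758, + strand: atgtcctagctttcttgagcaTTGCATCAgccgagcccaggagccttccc
Aars, chr8:111033830-111033879, + strand: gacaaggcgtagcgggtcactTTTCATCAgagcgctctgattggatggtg
Gars, chr6:55037950-55037999, + strand: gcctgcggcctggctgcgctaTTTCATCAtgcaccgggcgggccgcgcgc
Iars, chr13:49682116-49682165, + strand: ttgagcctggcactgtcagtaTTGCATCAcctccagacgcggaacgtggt
Tars, chr15:11399645-11399694, - strand: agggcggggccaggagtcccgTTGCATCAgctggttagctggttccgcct
Yars, chr4:129189885-129189934, + strand: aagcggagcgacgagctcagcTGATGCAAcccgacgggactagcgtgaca

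Counted from the annotated start, whose first base is 1, the matches begin at -112 and 10 in Aars, at -30 in Gars, at 8 in Iars, at -15 in Tars and at 4 in Yars. The stricter form TGATGCAAT, held by 0.192% of all windows, was present in Aars and Iars. Among all tested genes 9.8% fell, and in deciles 9 and 10 of level, which held all cytosolic enzymes, 17.0% and 19.4% did. Of the 5 genes with a match, 4 fell, and their median log2 ratios were -0.43 in set 1 and -0.58 in set 2. Of the 8 matched cytosolic genes without one (Dars, Eprs, Farsa, Farsb, Kars, Mars, Qars and Sars) 0 fell in limma, and their medians were -0.29 and -0.42. This difference was not tested, the form of the motif was one of 4 searched, and 7 cytosolic genes, 3 of them among those that fell, have no window here. A match is a description of letters, not a site.

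Genes around the synthetases were counted from lists. Among 15 tested ATF4 targets outside the synthetases 8 fell and 0 rose (53.3%, against 9.8% and 0.0682% of all genes), with median log2 ratios of -0.64 in set 1 and -0.52 in set 2. Relative to each set's median 1 of the 15 fell, Nupr1 (limma adjusted p = 9.3e-05), and 0 rose, against 0.214% and 0.146% of all genes. Asns, which makes asparagine, fell by 0.92 (SE 0.17, adjusted p = 2.1e-05), from 212 to 121 FPKM within set 1 and 117 to 57.1 within set 2. Mthfd2, a mitochondrial folate enzyme, fell to 64.2% and 57.1% of control in the sets (limma adjusted p = 0.0077). Pck2, a mitochondrial carboxykinase, fell to 48.0% and 45.8% (adjusted p = 0.0065). Chac1, which degrades glutathione, fell to 34.4% and 43.3% (adjusted p = 0.0025). Nupr1, a stress-induced nuclear protein, fell furthest, to 14.5% and 30.2% (adjusted p = 5.9e-07). Trib3, Shmt2 and Sesn2 also fell. The rest of the 15 did not pass. Of the 15, 13 were lower in both sets (86.7%, against 72.4% of all genes). The sets disagreed in sign for 2 (2542 of all 10261 tested genes). The 7 cytosolic synthetases that fell had log2 fold changes between -0.64 and -0.51. Whether these targets and the synthetases share a cause was not tested.

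Of 8 tested genes that sense uncharged tRNA or act on the stress pathway 2 fell and 0 rose (25.0%, against 9.8% and 0.0682% of all genes). Atf4 itself measured 385 FPKM in control 1 against 305 in Chd1-null 1, and 579 in control 2 against 273 in Chd1-null 2. It was lowest in both Chd1-null libraries and fell by 0.71 (SE 0.17, adjusted p = 0.0027), with the larger part in set 2. Ppp1r15b, a subunit that directs dephosphorylation of eIF2, fell by 0.80 (adjusted p = 0.0052). Eif2ak3, the kinase Perk, had -0.71 and -0.33 (adjusted p = 0.23). Eif2ak4, the Gcn2 kinase, had log2 ratios of -0.22 and -0.079 and did not pass (adjusted p = 0.75). ATF4 is controlled largely at translation, which FPKM does not measure.

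Of 13 tested genes for further synthetases, tRNA editing and accessory steps, 2 fell and 0 rose (15.4%, against 9.8% and 0.0682% of all genes). They were Eef1e1 and Pstk, the kinase that prepares tRNA for selenocysteine. Pstk went from 26.8 to 19.6 FPKM within set 1 and 52.2 to 21.1 within set 2 (log2 fold change -0.88, SE 0.20, adjusted p = 0.0012). The list's median log2 ratios were -0.18 in each set, above those of all genes.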

How the data were processed

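RNA-seq of 4 libraries was used, in 2 tables of 1 set each. The submitters' processing notes list Cufflinks 2.2.0 and Cuffdiff, TopHat2 2.0.10 and TopHat, and the build mm9. Which tool did what, the annotation and how the spike-in was used: not given in the sources used here. The values the authors deposited were taken as FPKM, a unit inferred from the values, so depth is unknown and no counting interval is given. The deposited ratio columns equalled the quotient of the value columns with relative differences of at most 4.97e-06. The lowest deposited value was 0.100.

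Genes were joined by symbol. Loci with no symbol, with several or with a repeated one were left out, which left 11728 genes, of which 10261 had a mean of at least 1 FPKM. Tests used log2(FPKM + 0.1), on which changes of low genes come out too small, and limma 3.58.1 in R 4.3.3 (lmFit, eBayes with a trend on level, set as block, two-sided, Benjamini-Hochberg over all tested genes at 0.05). The fit of the relative comparison was checked on simulated data. Control and Chd1-null libraries of a set deviated together from their group means (r = 0.483 across genes), and each set has its own table, which is why set was the block. Nothing in the labels ties replicates to separate cultures beyond the lines. The p-values rest on the spread, between these libraries, of genes of similar level, not on a gene's own spread.

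The genes, lists and tests were chosen with earlier results of these data known. Genes were named by rule: Chd1, every called gene of the group, the 4 lowest and 4 highest log2 fold changes per compartment with one sign in both sets, the highest and lowest level per compartment, genes of opposite sign in the sets, the scaffolds, and per further list the called genes and up to 3 with the largest change. The rest of the group is given for completeness, and Eif2ak4 was named outside the rule after its values were seen. The values of 1 further gene are not reported here. Vars2 and Hars2 are also older names of Vars and Dtd1 in the RefSeq table, but both deposited tables list these 4 symbols as separate loci. Promoter sequences are RefSeq's for GRCm38.p6, another build than the one the submitters name, and were matched by symbol or gene identifier only.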

Additional observations from a re-analysis of the deposited data

Results flagged for a closer look

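For 6 of the 38 genes the Chd1-null library lay above its control in one set and below it in the other. With 1 pair per set these differences could not be tested. Hars had a log2 ratio of 0.20 in set 1 and -0.27 in set 2. Dars had 0.095 in set 1 and -0.38 in set 2. Mars2, the mitochondrial methionine enzyme, had 0.039 and -0.54, and Cars2 had 0.072 and -0.12. Hars2 and Vars2 went the other way round, with -0.40 and 0.052 for Hars2 and -0.18 and 0.060 for Vars2. Across all tested genes, 2542 of 10261 had opposite signs in the sets.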

How the results depend on the processing

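The count of 8 genes that fell (7 cytosolic, 1 mitochondrial) was the same with a pseudocount of 1 or 0.01 and without the filter on low values. It was 2 (2 cytosolic, 0 mitochondrial) with the level trend removed. It was 0, in each compartment, with a mean of at least 5 FPKM, with library sum scaling, with one common prior variance and without the replicate block on set (paired libraries treated as unpaired). Unadjusted limma p-values under 0.05 then numbered 14 (of the 35 genes left), 1, 2 and 6. Such counts over all genes under these settings are not given here. No gene rose in limma under any of these settings, and in the relative comparison none passed in either direction. The cause of these losses was not tested, except that library sum scaling by its construction removes whatever all genes share. Under that scaling 22 genes turned from lower to higher: Hars (0.37), Dars (0.25), Rars (0.19), Farsb (0.11), Eprs (0.063), Farsa (0.054), Tars (0.045), Qars (0.037), Lars (0.025), Cars2 (0.37), Vars2 (0.33), Iars2 (0.23), Yars2 (0.23), Hars2 (0.22), Tars2 (0.18), Mars2 (0.14), Nars2 (0.13), Sars2 (0.091), Ears2 (0.061), Rars2 (0.019), Aimp1 (0.11) and Aimp2 (0.0087). The cytosolic minus mitochondrial difference kept its sign under every setting tried, from -0.23 with the level trend removed to -0.10 in set 1 alone. Without 1 set there is no test. Lars2 had -1.43 in set 2 alone and -0.35 in set 1 alone. On the deposited scale 37 genes had a log2 ratio under 0, and 35 and 33 in a single set. Below the median there were 15 genes, 24 in set 2 alone and 7 in set 1 alone (cytosolic 11, then 16 and 6; mitochondrial 4, then 6 and 1). No locus merged a gene of the group with another gene, so that alternative gave no value.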

Other observations

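Of 22 tested genes of tRNA processing and export 1 fell and 0 rose in limma (4.55%, against 9.8% and 0.0682% of all genes), with median log2 ratios of -0.28 in set 1 and -0.32 in set 2, both above those of all genes. That gene was Mettl1, which places 7-methylguanosine on tRNA, and it went from 16.5 to 12.2 FPKM within set 1 and 20.7 to 8.07 within set 2 (log2 fold change -0.89, adjusted p = 0.0079). Adat2, a tRNA deaminase subunit, and Ftsj1, a tRNA methyltransferase, came next at -0.61 and -0.60, and neither passed (adjusted p = 0.15 and 0.31).

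Of 9 mitochondrial translation factors 1 fell and 0 rose in limma (11.1%, near the 9.8% of all genes that fell). It was the elongation factor Tsfm, from 62.8 to 53.1 FPKM within set 1 and 101 to 51.4 within set 2 (log2 fold change -0.61, adjusted p = 0.014).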
